A study of Rattus norvegicus with 20 samples.

Results

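Chemokines and chemokine receptors were followed in mammary tissue, cancerous and normal, of irradiated rats. The genes were those whose probe carries a RefSeq accession that maps to a symbol beginning with Ccl, Cxcl, Cx3cl, Xcl, Ccr, Cxcr, Cx3cr, Xcr or Ackr and a number. They were 42 genes on 48 probes, of 41012 probes that are not controls and 10835 probes with a symbol, and comprised 26 ligands and 16 receptors. The other 15 of the 57 family symbols in the reference table were reached by no accession and are not analysed here. Among them are Cxcl16, Cxcl17, Ccl19, Ccr10, Cxcr6, Xcr1 and Ackr1.

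Mammary adenocarcinomas from female Sprague-Dawley (Jcl:SD) rats came from 6 obesity-prone (OP), 3 obesity-resistant (OR) and 3 lean control (LC) cases, and normal mammary tissue from 3 OP, 2 OR and 3 LC cases. OP and OR rats ate a diet with 45 kcal% fat and had been separated by body weight, and LC rats ate a diet with 10 kcal% fat. Every group, normal tissue included, had received 4 Gy of Cs-137 gamma rays to the whole body at 7 weeks of age, at 0.5 Gy/min, and was watched for 30 weeks. The submitters had picked cancers of even histology that showed no necrosis and few infiltrating cells, which limits what the cancers can show about leukocyte signals. The labels do not say that each sample came from a separate animal, so p-values speak only of how far these samples scatter, which may be technical.

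Chemokines are small secreted proteins that draw leukocytes along a gradient. They are named CC, CXC, CX3C or XC after the spacing of cysteines near the amino end, and they act on G protein-coupled receptors named to match. Atypical receptors bind the same ligands without this signalling and take them up. In the mammary gland, macrophages and eosinophils that enter in response to such signals take part in ductal growth, as known from mice.

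Cxcl1, Cxcl2 and Cxcl6 encode CXC ligands that attract neutrophils through Cxcr2, and they lie close together on chromosome 14. Their promoters are shown because these neighbours gave different results in cancer, described further on, although all 3 hold the same motif of the kind that NF-kappa-B binds. The windows run from 250 bases before to 50 bases after the gene's start, from RefSeq (GRCr8), and each is written 5′ to 3′ on the gene's strand with the motif in capitals. The motif searched, on both strands, was GGG, then any base, then ATTTCC, and it overlaps no other motif searched.
Cxcl1 (chr14:17479272-17479571, minus strand): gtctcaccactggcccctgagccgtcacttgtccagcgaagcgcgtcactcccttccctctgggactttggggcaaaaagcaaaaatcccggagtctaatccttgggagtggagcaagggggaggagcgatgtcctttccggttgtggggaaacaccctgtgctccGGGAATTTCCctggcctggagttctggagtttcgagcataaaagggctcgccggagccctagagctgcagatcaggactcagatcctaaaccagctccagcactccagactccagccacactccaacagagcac
Cxcl2 (chr14:17467206-17467505, minus strand): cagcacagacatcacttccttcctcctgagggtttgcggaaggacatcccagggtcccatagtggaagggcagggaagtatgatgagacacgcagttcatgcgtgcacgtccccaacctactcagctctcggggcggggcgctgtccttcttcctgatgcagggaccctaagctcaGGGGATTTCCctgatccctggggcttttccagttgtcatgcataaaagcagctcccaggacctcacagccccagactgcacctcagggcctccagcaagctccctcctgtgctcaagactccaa
Cxcl6 (chr14:17596368-17596667, minus strand): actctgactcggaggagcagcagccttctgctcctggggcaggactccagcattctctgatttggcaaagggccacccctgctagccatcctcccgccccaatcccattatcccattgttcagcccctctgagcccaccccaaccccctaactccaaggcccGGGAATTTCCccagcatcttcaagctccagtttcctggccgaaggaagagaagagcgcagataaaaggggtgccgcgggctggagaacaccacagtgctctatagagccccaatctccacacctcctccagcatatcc
The motif began at base 167 of the Cxcl1 window, base 177 of the Cxcl2 window and base 163 of the Cxcl6 window. It occurred in 4 of the 32 family promoters in the table, these 3 and Ccr3, and in 102 of all 33469 promoters of the same length (0.305%). A match is a description of the letters and not a measured binding site.

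Levels are given on a log2 scale of background-corrected, quantile-normalised brightness, so a difference of 1 is a 2-fold change. They are comparable between samples and not between genes. The deposited files mark on each array whether a probe is well above background. Of the 42 genes, 22 were well above background on all 12 cancers, 15 on some cancers and 5 (Ccl25, Ccr3, Ccr9, Cxcr1 and Cxcr5) on none, whereas 37 were well above background on all 8 normal tissues. This followed the arrays as a whole, with 68.6% ± 6.59 of probes above background in cancers (SD, n = 12) and 94.1% ± 3.33 in normal tissues (SD, n = 8). All 42 genes passed the filter on dim probes.

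Markers of other cell types separated the tissues too. All 8 measured luminal epithelial markers rose in cancer (Krt18 by 1.86 and Krt8 by 2.36), all 9 adipocyte markers fell (Retn −7.99, Adipoq −8.21), and the 5 endothelial markers fell (Esam −1.64, Kdr −1.69). The mean level of the adipocyte list ran from 7.58 to 8.17 in cancers and from 12.4 to 13.3 in normal tissues. Of 8 fibroblast markers 5 fell and none rose (Fbn1 −2.35, Sparc −1.51). Of 11 macrophage markers 4 fell and none rose (Cd14 −1.42, Tyrobp −0.97, list median −0.28). Fcgr2a (0.74) and Csf1r (0.40) had positive differences that did not pass. Of 10 T cell markers none passed the test (Cd4 −0.21, Cd247 −0.49, Cd8a 0.74, list median −0.06). The same held for the 3 B and plasma cell markers (Cd79b −1.24, Blk −0.17, Mzb1 0.16). It also held for the 3 neutrophil markers (Mmp8 0.18, S100a8 0.54, S100a9 −0.14). Of 10 NK and cytotoxic cell markers 1 rose (Gzmb 0.74) and 3 fell (Klrb1a −1.04 among them), of 2 dendritic cell markers 1 fell (Batf3 −0.84, against 0.03 for Cd86), and of 5 platelet markers 3 fell (Pf4 −1.79, Ppbp −0.34).

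A cancer and a normal tissue stood apart from the others of their kind. OP cancer 6 had a mean neutrophil marker level of 12.2, against at most 8.30 in any other cancer, and a mean macrophage level of 13.5, against at most 12.4. LC normal tissue 3 had a mean T cell marker level of 10.9, against at most 8.001 in any other normal tissue, and a mean B and plasma cell level of 10.1, against at most 7.09. OP cancer 6 was the highest cancer for 22 of the 42 genes, and LC normal tissue 3 the highest normal tissue for 22. The same shares over all genes were not computed, so these counts do not single out the family. The part of these marker levels in the results was not tested.

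**Figure D1:**
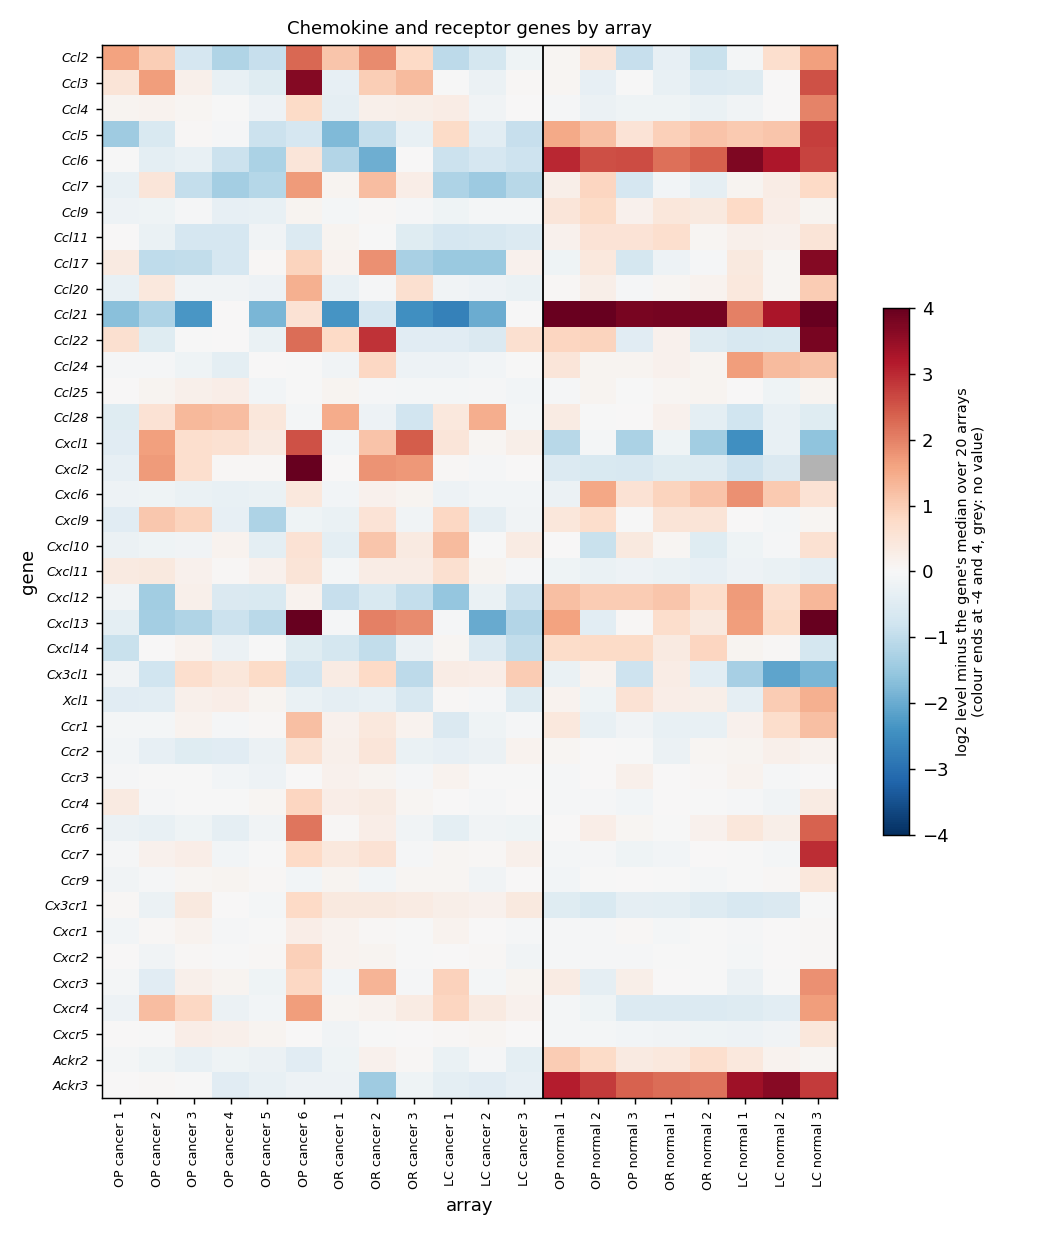
Heat map of the genes (rows, by role) on the 20 arrays (columns, cancers left of the line and normal tissues right of it), as log2 level minus the gene's median over all arrays. Ccl21, Ccl6, Ackr3 and Cxcl12 are darker red across the normal tissues, OP cancer 6 is red for Ccl3, Cxcl2, Cxcl13 and Ccr6, LC normal 3 is red for Ccl17, Ccl22, Cxcl13 and Ccr7, and the grey cell is the missing Cxcl2 value.

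Cancer was compared with normal tissue by averaging the 3 cancer groups with equal weight and subtracting the same average of the 3 normal groups. The ligands Ccl21, Ccl6, Ccl5 and Cxcl12 fell in cancer by 44.9-fold, 11.3-fold, 3.63-fold and 3.43-fold, the atypical receptors Ackr3 and Ackr2 fell as well, whereas the neutrophil attractant Cxcl1 and the membrane-bound ligand Cx3cl1 rose. Within obesity groups the Cx3cl1 rise was called only in LC rats. By limma with Benjamini-Hochberg adjustment over all 36142 genes, 17 of the 42 family genes had an adjusted p under 0.05, where 62.4% of all genes did. Of these 4 rose (29.4% of all genes rose), Cxcl1, Cx3cl1, and Cx3cr1 and Cxcl11 that turn negative with 75th percentile scaling, and 13 fell (33% of all genes fell). A change of at least 2-fold was called upward for 1 gene (5.89% of all genes) and downward for 7 (5.77% of all genes). The median difference was −0.07 over the family and −0.02 over all genes. In whole tissue, fewer cells of a type and less RNA per cell cannot be told apart.

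By role, 6 of 15 CC ligands fell and none rose, 2 of 9 CXC ligands rose and 3 fell, Cx3cl1 rose and Xcl1 fell, 1 of 14 signalling receptors rose (Cx3cr1), and both atypical receptors fell, where Cx3cr1 and the CXC ligand Cxcl11 turn negative with 75th percentile scaling. The whole range of values did not overlap between tissues for 4 genes that lay below in cancer (Ackr3, Ccl6, Ccl21 and Cxcl12), where 11.5% of all genes did so, and for 2 that lay above (Cxcl11, which turns negative with 75th percentile scaling, and Cxcl2), where 8.8% did so.

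**Figure D2:**
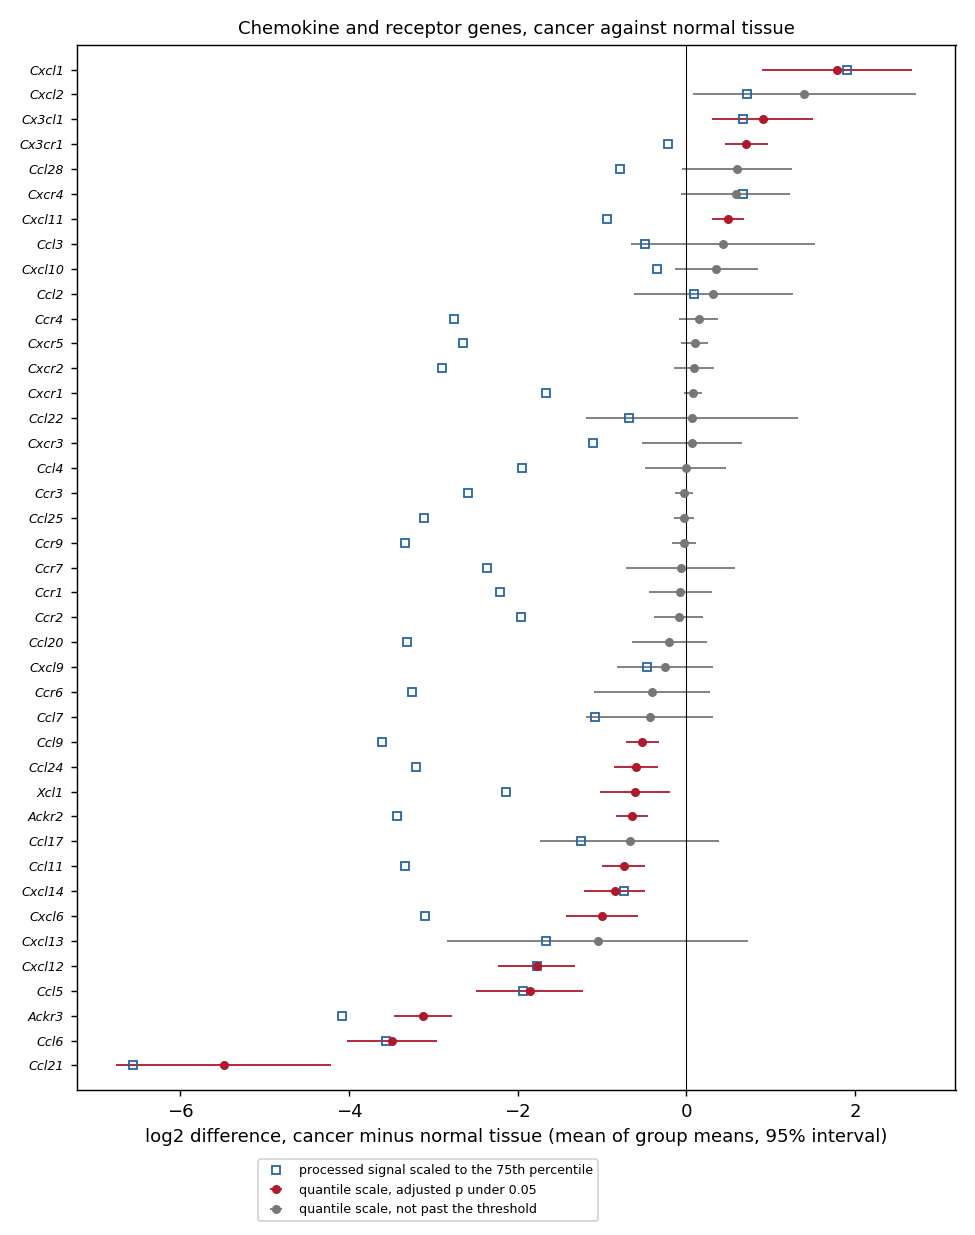
Log2 difference of each gene shown in cancer minus normal tissue with its 95% interval (circles, red where the adjusted p is under 0.05), beside the value from processed signals scaled to each array's 75th percentile (squares). Ccl21 lies farthest down at −5.49 and Cxcl1 farthest up at 1.79, and most squares of dim receptors lie left of their circles.

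Among the CC ligands, Ccl21 showed the widest gap. Ccl21 is made by lymphatic endothelium and lymphoid stroma and guides cells that carry Ccr7. Its levels ran from 7.20 to 10.13 (median 8.08) in OP cancers and were 7.18, 8.87 and 7.07 in OR cancers and 6.83, 7.55 and 9.52 in LC cancers. Normal tissues had 13.48, 13.96 and 13.32 (OP), 13.37 and 13.37 (OR) and 11.54, 12.80 and 16.57 (LC). Every cancer lay below every normal tissue, and the spread was widest in LC normal tissue, where tissue 3 was highest. The difference was −5.49 ± 0.60 (SE; 95% interval −6.76 to −4.22; adjusted p = 1.24e-06 by limma), a 44.9-fold lower level. Of the lymphatic endothelial markers, Reln rose (1.38), Flt4 fell (−0.78) and Pdpn had −0.19. The list's mean level ran from 8.33 to 9.35 in cancers and from 8.12 to 9.16 in normal tissues, and its part in the Ccl21 result was not tested.

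Ccl6 is a CC ligand of rodents that draws macrophages, as known from mice. OP cancers ran from 8.83 to 10.57 (median 9.76), OR cancers had 8.93, 8.14 and 10.12, and LC cancers had 9.23, 9.41 and 9.25. Levels in normal tissue were 13.10, 12.68 and 12.70 (OP), 12.30 and 12.49 (OR) and 13.84, 13.33 and 12.80 (LC). The tissues did not overlap, and the highest sample was an LC normal tissue. The difference was −3.49 ± 0.25 (SE, adjusted p = 1.79e-08), an 11.3-fold lower level.

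Ccl5 attracts T cells and monocytes. OP cancers had 8.42 to 9.88 (median 9.18), OR cancers 8.06, 8.87 and 9.54, and LC cancers 10.60, 9.40 and 8.90. Against these stood 11.33, 11.04 and 10.39 in OP, 10.79 and 10.97 in OR and 10.86, 10.95 and 12.60 in LC normal tissues. LC cancer 1 lay above the lowest normal tissue, and otherwise the ranges were apart. The difference was −1.86 ± 0.30 (SE, adjusted p = 5.45e-05), a 3.63-fold lower level. LC normal tissue 3, whose T cell markers were the highest, also had the highest Ccl5.

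The eotaxins Ccl11 and Ccl24, which attract eosinophils through Ccr3, and Ccl9, a macrophage attractant of rodents, fell by less than 2-fold from levels that were near background in cancer. Ccl11 ran from 6.51 to 7.21 (median 6.77) in OP cancers, with 7.30, 7.16 and 6.70 in OR and 6.51, 6.56 and 6.63 in LC cancers. Its normal tissues had 7.35, 7.75 and 7.74 (OP), 7.85 and 7.28 (OR) and 7.38, 7.37 and 7.70 (LC). It was well above background on 6 of 12 cancers and on no LC cancer, and the difference was −0.75 ± 0.12 (SE, adjusted p = 5.10e-05), with OR cancer 1 inside the normal range.

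Ccl24 was well above background on 5 of 12 cancers, with 6.46 to 6.86 (median 6.80) in OP cancers, 6.71, 7.67 and 6.63 in OR cancers and 6.64, 6.74 and 6.82 in LC cancers. Normal tissues had 7.33, 6.96 and 6.95 (OP), 7.00 and 6.94 (OR) and 8.51, 8.09 and 8.02 (LC). The LC normal tissues stood above all other samples, and OR cancer 2 was the only cancer above the OP normal tissues. The difference was −0.60 ± 0.12 (SE, adjusted p = 0.000503).

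For Ccl9, OP cancers had 6.46 to 6.90 (median 6.61), OR cancers 6.70, 6.82 and 6.72, and LC cancers 6.62, 6.71 and 6.70. Normal tissues had 7.27, 7.54 and 6.94 (OP), 7.25 and 7.16 (OR) and 7.57, 7.05 and 6.89 (LC). Only OP cancer 6 reached the normal range, and 4 of 12 cancers, none of them LC, were well above background. The difference was −0.52 ± 0.09 (SE, adjusted p = 0.000157).

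The other 9 CC ligands did not pass the test in cancer against normal tissue. Ccl2, a monocyte attractant, ran from 7.61 to 11.11 in cancers and from 7.90 to 10.44 in normal tissues, and its difference was 0.32 (95% interval −0.62 to 1.26). The related Ccl7 had −0.43 (−1.19 to 0.32), and Ccl17 and Ccl22, which attract Ccr4-bearing T cells, had −0.67 and 0.07. Ccl3 and Ccl4, attractants of monocytes and T cells, had 0.43 and −0.01. Ccl28, known for attracting plasma cells to the lactating gland, had 0.60 (−0.05 to 1.26, adjusted p = 0.0982), Ccl20, the ligand of Ccr6, had −0.20, and Ccl25, the ligand of Ccr9, had −0.03 with no cancer well above background.

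**Figure D3:**
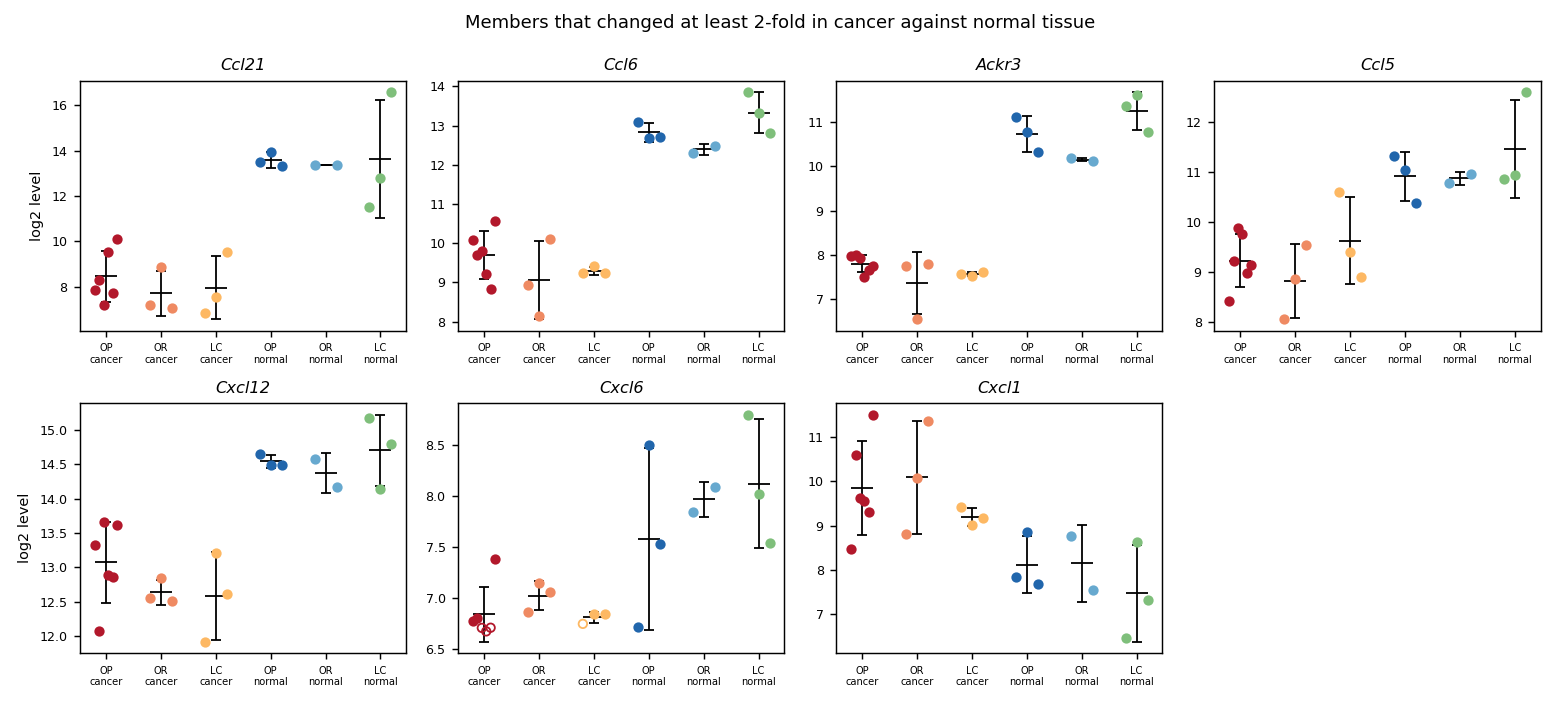
Log2 level of 7 genes that passed the test with at least a 2-fold difference, by group (cancers left, normal tissues right), with each sample as a point (open where not well above background) and the group mean ± SD as bars. Cancers lie mostly below normal tissues for Ccl21, Ccl6, Ackr3, Cxcl12, Ccl5 and Cxcl6, without overlap for the first 4, and mostly above them for Cxcl1.

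Among the CXC ligands, Cxcl12 fell. Cxcl12 is made by stromal cells and holds and guides cells that carry Cxcr4. OP cancers ran from 12.08 to 13.66 (median 13.11), OR cancers had 12.55, 12.85 and 12.51, and LC cancers had 11.92, 13.21 and 12.61. Levels of 14.65, 14.48 and 14.49 (OP), 14.58 and 14.16 (OR) and 15.17, 14.14 and 14.79 (LC) were found in normal tissues. The tissues did not overlap. The mean fibroblast marker level ran from 11.6 to 14.03 in cancers and from 13.0 to 14.1 in normal tissues, and its part in the Cxcl12 result was not tested. The difference was −1.78 ± 0.21 (SE, adjusted p = 3.38e-06), a 3.43-fold lower level, and a second Cxcl12 probe, which carries another transcript's accession, gave −0.91 (adjusted p = 0.00715).

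Cxcl1 rose. OP cancers had 8.48 to 11.49 (median 9.59), OR cancers 8.82, 10.08 and 11.35, and LC cancers 9.41, 9.0 and 9.16. Normal tissues had 7.83, 8.86 and 7.67 (OP), 8.76 and 7.54 (OR) and 6.47, 8.64 and 7.33 (LC). Only OP cancer 1 and OR cancer 1 lay within the normal range. The difference was 1.79 ± 0.42 (SE, adjusted p = 0.00147), 3.45-fold higher.

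Its neighbour Cxcl2 lay above normal tissue in every cancer, with 6.82 to 12.43 (median 7.51) in OP, 7.16, 8.94 and 8.90 in OR and 7.20, 7.10 and 7.16 in LC cancers. Normal tissues had 6.61, 6.56 and 6.51 (OP), 6.67 and 6.65 (OR) and 6.33 and 6.59 (LC, where the third value was left out for an outlier mark). OP cancer 6, which had the highest neutrophil markers, was far above the rest. The difference of 1.40 (95% interval 0.08 to 2.72) missed the threshold (adjusted p = 0.0610). Without OP cancer 6 and LC normal tissue 3 together, a setting chosen after seeing the data, it was 1.13 with an adjusted p of 0.00288, and over all settings the adjusted p of Cxcl2 ran from 0.00288 to 0.454.

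Cxcl6, the third gene at the locus, fell. OP cancers had 6.67 to 7.38 (median 6.74), OR cancers 6.86, 7.14 and 7.06, and LC cancers 6.74, 6.84 and 6.84, with 8 of 12 well above background. Normal tissues had 6.72, 8.50 and 7.53 (OP), 7.85 and 8.09 (OR) and 8.80, 8.02 and 7.54 (LC). OP normal tissue 1 lay among the cancers, and the other normal tissues lay above all of them. The difference was −1.001 ± 0.20 (SE, adjusted p = 0.000382), so that Cxcl1 and Cxcl6, with the motif in both promoters printed above, were called in opposite directions.

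Cxcl14, a ligand made by many epithelia, ran from 11.48 to 12.51 (median 12.24) in OP cancers, with 11.65, 11.39 and 12.12 in OR and 12.42, 11.81 and 11.38 in LC cancers. Normal tissues had 13.09, 13.13 and 13.13 (OP), 12.71 and 13.21 (OR) and 12.48, 12.42 and 11.66 (LC). The OP and OR normal tissues lay above all cancers, and LC normal tissues overlapped them. The difference was −0.85 ± 0.17 (SE, adjusted p = 0.000446). It stayed negative with 75th percentile scaling (−0.74), which moved the median of all genes to −1.52, so relative to that median it turned to 0.77.

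The interferon-induced ligands Cxcl9, Cxcl10 and Cxcl11 all bind Cxcr3. Cxcl11 had 6.89 to 7.35 (median 7.10) in OP, 6.77, 7.12 and 7.13 in OR and 7.46, 6.95 and 6.77 in LC cancers. Normal tissues lay lower, at 6.67, 6.56 and 6.62 (OP), 6.57 and 6.49 (OR) and 6.64, 6.56 and 6.48 (LC). The tissues did not overlap and Cxcl11 rose (0.49 ± 0.09, SE, adjusted p = 0.000161), but with 75th percentile scaling the difference was −0.94, or 0.57 above the median of all genes on that scale. Cxcl9 had −0.25 (95% interval −0.82 to 0.31) and Cxcl10 had 0.36 (−0.14 to 0.85). Cxcl13, which draws B cells through Cxcr5, had −1.05 (−2.84 to 0.73), with a range of 6.79 to 14.22 in cancers and 8.39 to 13.89 in normal tissues, and OP cancer 6 and LC normal tissue 3 were the highest of each.

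The 2 remaining ligands are Cx3cl1, a membrane-bound ligand of monocytes and T cells, and Xcl1, a product of activated T and NK cells. Cx3cl1 had 14.28 to 15.83 (median 15.23) in OP, 15.39, 15.86 and 14.02 in OR and 15.36, 15.34 and 16.09 in LC cancers. Normal tissues had 14.82, 15.23 and 14.24 (OP), 15.36 and 14.64 (OR) and 13.75, 12.97 and 13.23 (LC). Only the LC groups were apart. Cx3cl1 rose by 0.90 ± 0.28 (SE, adjusted p = 0.0104), and a second probe gave 0.68 (adjusted p = 0.04995). With slides as a block it was 0.71 and no longer called (adjusted p = 0.170). Within slide 2, which held 1 cancer and 3 normal tissues, the difference was −0.24, against 0.86 and 1.36 within slides 1 and 3.

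Xcl1 had 7.05 to 7.75 (median 7.42) in OP, 7.13, 7.19 and 6.86 in OR and 7.54, 7.45 and 6.98 in LC cancers. Normal tissues had 7.63, 7.33 and 8.07 (OP), 7.76 and 7.72 (OR) and 7.15, 8.52 and 8.91 (LC). The tissues overlapped, and LC normal tissue 3 was the highest. Xcl1 fell (−0.61 ± 0.20, SE, adjusted p = 0.0129), but not with slides as a block (−0.52, adjusted p = 0.103).

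The atypical receptors fell together. Ackr3 takes up Cxcl12. Ackr3 ran from 7.49 to 8.0 (median 7.84) in OP cancers, with 7.74, 6.55 and 7.79 in OR and 7.58, 7.51 and 7.62 in LC cancers, against 11.10, 10.76 and 10.31 in OP, 10.18 and 10.12 in OR and 11.35, 11.60 and 10.76 in LC normal tissues. More than 2 log2 units separated the highest cancer from the lowest normal tissue. The difference was −3.12 ± 0.16 (SE; 95% interval −3.47 to −2.78; adjusted p = 6.14e-10), an 8.72-fold lower level, and this was the smallest p of the 42 genes.

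Ackr2 clears inflammatory CC ligands. It was well above background on 6 of 12 cancers, with 6.44 to 6.79 (median 6.66) in OP, 6.71, 7.03 and 6.93 in OR and 6.62, 6.82 and 6.48 in LC cancers. Normal tissues had 7.89, 7.64 and 7.22 (OP), 7.29 and 7.55 (OR) and 7.30, 7.00 and 6.96 (LC). OR cancer 2 lay above the 2 lowest normal tissues. The difference was −0.64 ± 0.09 (SE, adjusted p = 1.39e-05).

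Among the 14 signalling receptors, Cx3cr1, the receptor of Cx3cl1 on monocytes and macrophages, rose. OP cancers had 6.90 to 7.95 (median 7.18), OR cancers 7.52, 7.52 and 7.48, and LC cancers 7.37, 7.31 and 7.53, against 6.67, 6.53 and 6.78 in OP, 6.76 and 6.63 in OR and 6.50, 6.56 and 7.12 in LC normal tissues. Only LC normal tissue 3 reached the range of the cancers. Cx3cr1 rose by 0.71 ± 0.12 (SE, adjusted p = 9.69e-05), but with 75th percentile scaling the difference was −0.22, or 1.30 above the median of all genes on that scale.

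Of the other receptors, Cxcr4, the receptor of Cxcl12, had 9.20 to 11.11 in cancers and 8.87 to 11.09 in normal tissues. LC normal tissue 3 was the highest normal tissue, and all other normal tissues lay at or below 9.34. Its brighter probe gave 0.58 (adjusted p = 0.110) and its second probe 1.23 (adjusted p = 0.00798). Without OP cancer 6 and LC normal tissue 3 the brighter probe gave 0.74 (adjusted p = 0.00434). Cxcr3, on activated T cells, had 0.06 (95% interval −0.53 to 0.66), Ccr2, on monocytes, −0.09 (−0.38 to 0.20), Ccr1 −0.07, and Ccr7, on naive T cells and dendritic cells, −0.07. The remaining 7, Ccr3, Ccr4, Ccr6, Ccr9, Cxcr1, Cxcr2 and Cxcr5, were well above background on at most 4 of 12 cancers, and their differences ran from −0.41 to 0.14.

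Without OP cancer 6 and LC normal tissue 3 together, 9 genes rose (30.6% of all genes) and 15 fell (33.9% of all genes), and all 17 calls were kept. The added calls were upward for Cxcl2, Cxcr4, Cxcr5 (0.17), Ccr7 (0.22) and Ccr4 (0.14), and downward for Cxcl13 (−0.98) and Ccr6 (−0.32). Cxcr5 was well above background on no cancer, and Ccr7, Ccr4 and Ccr6 on 4 of 12 cancers each. In all samples with 75th percentile scaling of processed signals, Cxcr5, Ccr7 and Ccr4 had −2.65, −2.36 and −2.75. With processed signals scaled to the 75th percentile 2 genes rose (14.3% of all genes) and 28 fell (66.5% of all genes), with 17.7% of all calls upward, against 47.1% on the quantile scale. Of the 17 calls, 15 kept direction and threshold there, all but Cx3cr1 and Cxcl11. Relative to the median of all genes 16 kept their direction, all but Cxcl14. The margin differed. Against that median of −1.52, Ccl21 had −6.56, Ackr3 −4.08 and Ccl6 −3.56, but Ccl5 at −1.94 and Cxcl12 at −1.77 lay close to it. With normexp before that scaling Ccl5 and Cxcl12 had −1.71 and −1.69, against a median of −0.80. Slides 1 to 3 held both tissues, and of the 17 genes all but Cx3cl1 had the same direction within each of them (Ackr3 −3.45, −2.84 and −2.66, and Cxcl1 1.79, 1.83 and 1.30).

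Within OP rats, 13 genes passed the test between cancer and normal tissue (44.5% of all genes), of which 3 rose (21.4% of all genes) and 10 fell (23.1% of all genes). Within OR rats 9 passed (28.2% of all genes), of which 2 rose (14.1% of all genes) and 7 fell (14.1% of all genes), and within LC rats 18 passed (43.4% of all genes), of which 3 rose (20.2% of all genes) and 15 fell (23.3% of all genes). Ackr3 was −2.92, −2.79 and −3.67 in OP, OR and LC rats, Ccl6 −3.13, −3.33 and −4.03, Ccl21 −5.13, −5.67 and −5.67, and Cxcl12 −1.47, −1.74 and −2.12, each with an adjusted p under 0.05. Ccl5 fell in all 3 (−1.68, −2.06 and −1.83), but with slides as a block it was not called in OR (−1.99, adjusted p = 0.0897) or LC rats (−1.77, adjusted p = 0.0707), nor in OR rats without OR cancer 1 or either OR normal tissue, nor in LC rats without LC cancer 3 or LC normal tissue 3. Ackr2 fell in all 3 (−0.94, −0.53 and −0.45), but blocking on scan day ended the call in OR (−0.53, adjusted p = 0.0591) or LC rats (−0.45, adjusted p = 0.0562). The Ackr2 call was also lost in OR rats without OR cancer 1 or 3 or either OR normal tissue, and in LC rats without LC cancer 1 or 3 or LC normal tissue 1. Cx3cr1 (0.64, 0.82 and 0.68) and Cxcl11 (0.49, 0.48 and 0.50) were called higher in all 3 on the quantile scale and had negative differences in all 3 with 75th percentile scaling. With slides as a block Cx3cr1 was called in none of the 3 (adjusted p = 0.155, 0.0783 and 0.0648), and blocking on scan day gave the same (adjusted p = 0.0630, 0.0602 and 0.0708). Cxcl11 was not called in OR rats with slides as a block (0.53, adjusted p = 0.0809) or in 13 of the fits that left out 1 sample.

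Some genes were called within 1 or 2 of the obesity groups. A missing call in the other groups does not show a smaller difference there. Cxcl14 fell in OP and OR rats (−0.997 and −1.24), and Cxcl1 rose in OP rats (1.72, adjusted p = 0.0356). The Cxcl1 difference was of like size in OR (1.93, adjusted p = 0.0867) and LC rats (1.71, adjusted p = 0.0669), where it was not called. Ccl11 and Ccl9 fell in OP rats (−0.81 and −0.62) and were called in LC rats, where no cancer was well above background. Cx3cl1 rose in LC rats (2.28, adjusted p = 0.00167), and Ccl24 (−1.48), Cxcl6 (−1.31) and Xcl1 (−0.87) fell there. Cxcl6 was −0.74 in OP (adjusted p = 0.0534) and −0.95 in OR rats (adjusted p = 0.0777), not called in either. Without OP cancer 6 and LC normal tissue 3, Cxcl1 in OP rats was 1.39 (adjusted p = 0.0696), and in LC rats Ccl5 was −1.27 (adjusted p = 0.0575) and Xcl1 −0.51 (adjusted p = 0.233). With slides as a block Cxcl14 in OR rats was −0.92 (adjusted p = 0.135), Cxcl1 in OP rats 1.13 (adjusted p = 0.213), Ccl11 in OP rats −0.51 (adjusted p = 0.103) and Xcl1 in LC rats −0.62 (adjusted p = 0.228). Blocking on scan day, Cxcl1 in OP rats was 1.30 (adjusted p = 0.161) and Xcl1 in LC rats −0.97 (adjusted p = 0.0578). The Cxcl1 call was lost without OP cancer 2 or 6 or OP normal tissue 1 or 3, the Cxcl14 call in OR rats without OR normal tissue 2, and the Xcl1 call in 16 of the fits that left out 1 sample. The interaction of tissue and obesity, given below, sets OP rats against the mean of OR and LC rats. A departure of LC or OR rats from the other groups was not tested.

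Ccr1, Ccl7 and Ccl17 were called lower in LC cancers and were not called in cancer against normal tissue as a whole. Ccr1, a receptor of Ccl3 and Ccl5 on monocytes and neutrophils, had 6.77 to 8.02 (median 6.83) in OP, 7.00, 7.25 and 6.98 in OR and 6.27, 6.66 and 6.80 in LC cancers, none of the LC cancers well above background. Its normal tissues had 7.26, 6.53 and 6.70 (OP), 6.55 and 6.54 (OR) and 7.00, 7.54 and 8.03 (LC). The LC groups did not overlap (adjusted p = 0.0204), and the call was lost without LC cancer 1 or LC normal tissue 3.

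Ccl7 had 7.25 to 10.30 (median 7.97) in OP, 8.71, 9.83 and 8.85 in OR and 7.35, 7.13 and 7.49 in LC cancers. Normal tissues had 8.82, 9.46 and 7.91 (OP), 8.49 and 8.24 (OR) and 8.70, 8.88 and 9.40 (LC). The LC cancers lay below every other normal tissue too, and the LC difference was −1.67 (adjusted p = 0.0378). The Ccl7 call was lost without any 1 of the 6 LC samples and in both blocked fits, at −1.73 for slides (adjusted p = 0.125) and −1.59 for scan days (adjusted p = 0.0856).

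Ccl17 had 7.69 to 9.61 (median 8.42) in OP, 8.88, 10.56 and 7.42 in OR and 7.24, 7.23 and 8.90 in LC cancers, against 8.54, 9.15 and 8.03 in OP, 8.53 and 8.66 in OR and 9.10, 8.79 and 12.38 in LC normal tissues. LC normal tissue 3 was far above the others. The LC difference of −2.30 (adjusted p = 0.0425) was −1.15 without OP cancer 6 and LC normal tissue 3 (adjusted p = 0.212). The Ccl17 call was also lost in both blocked fits, at −2.69 for slides (adjusted p = 0.0924) and −2.50 for scan days (adjusted p = 0.0573), and in 9 of the fits that left out 1 sample.

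Whether the cancer difference in OP rats departed from that in the others was tested as the interaction of tissue and obesity, OP against the mean of OR and LC. OR and LC rats are averaged there, so opposite differences in these groups can cancel out. No gene passed in limma (0 of 36142, hence 0% of all genes), whereas 2 higher and 1 lower, none of the family, passed with slides as a block, and 1 higher without OP cancer 6 and LC normal tissue 3. At an unadjusted p under 0.05 there was 1 family gene, Ackr2 (−0.45, 95% interval −0.83 to −0.08), where 4.18% of all genes were. Ccl24 (0.38, −0.14 to 0.89) and Cx3cl1 (−0.85, −2.03 to 0.33) had the next smallest p.

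Among the 12 cancers, limma called no gene between obesity groups (0 of 36142, 0%, in each of the 3 comparisons). Without OP cancer 6 and LC normal tissue 3 it called 39 genes higher and 4 lower in OP against OR cancers and 170 higher and 5 lower in OP against LC cancers, and 75th percentile scaling of processed signals called 12 lower in OP against OR cancers. None of these was a family gene. Slide 4 held 4 OP cancers and no other sample, and slide 5 held 2 OR and 2 LC cancers. Differences of OP cancers from the other groups therefore cannot be fully told apart from differences between slides. OP against OR cancers had 1 family gene with an unadjusted p under 0.05 (10.8% of all genes), Ackr2 at −0.25 (adjusted p = 0.446), followed by Cxcr5 (0.15) and Ackr3 (0.44). OP against LC cancers had none (7.13% of all genes), and the smallest p belonged to Ccr1 (0.46, 95% interval −0.10 to 1.02), Ccl25 (0.15) and Ccl7 (1.01, −0.28 to 2.30). OR against LC cancers had 3 (4.2% of all genes), all higher in OR cancers and all with an adjusted p of 0.999: Ccl7 (1.81), Ccl11 (0.49) and Ccl2 (1.91). Ccl2 was 9.93, 10.69 and 9.60 in OR and 7.77, 8.10 and 8.64 in LC cancers, without overlap, and OP cancers spanned both with 7.61 to 11.11. These comparisons share the cancers of each group. For OP against OR cancers the 95% interval reached a median of 0.669 to either side of the difference over the family.

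Among the normal tissues limma called 0 of 36142 genes (0%) in each comparison as well. Without LC normal tissue 3 and OP cancer 6 it called 1 gene higher in OP against LC, and 2 higher and 1 lower in OR against LC, none of the family. OP against LC normal tissue had 5 family genes with an unadjusted p under 0.05 (11.9%, against 8.81% of all genes), and OR against LC had 7 (16.7%, against 8.96% of all genes), whereas OP against OR had 0 (0.611% of all genes). Ccl24 was lower in both high-fat groups, by −1.13 in OP (adjusted p = 0.160) and −1.24 in OR (adjusted p = 0.180). As given above, the 3 LC values lay between 8.02 and 8.51 and those of OP and OR between 6.94 and 7.33. Without LC normal tissue 1 the adjusted p was 0.0402 in OP and 0.0374 in OR, and over all settings it ran from 0.0402 to 0.9999 in OP and from 0.0374 to 0.9995 in OR. Cx3cl1 was higher in both (1.45 in OP with an adjusted p of 0.252, and 1.68 in OR with 0.260), again without overlap with LC. Cxcl14 was 0.93 higher in OP (adjusted p = 0.307), and Ackr3 was 1.09 lower in OR (−1.09, adjusted p = 0.353). Between OP and OR normal tissues the smallest p belonged to Ackr3 (0.58, 95% interval −0.14 to 1.30), Ccl6 (0.43) and Cxcl11 (0.09). OP and OR share the LC tissues as their comparison.

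**Figure D4:**
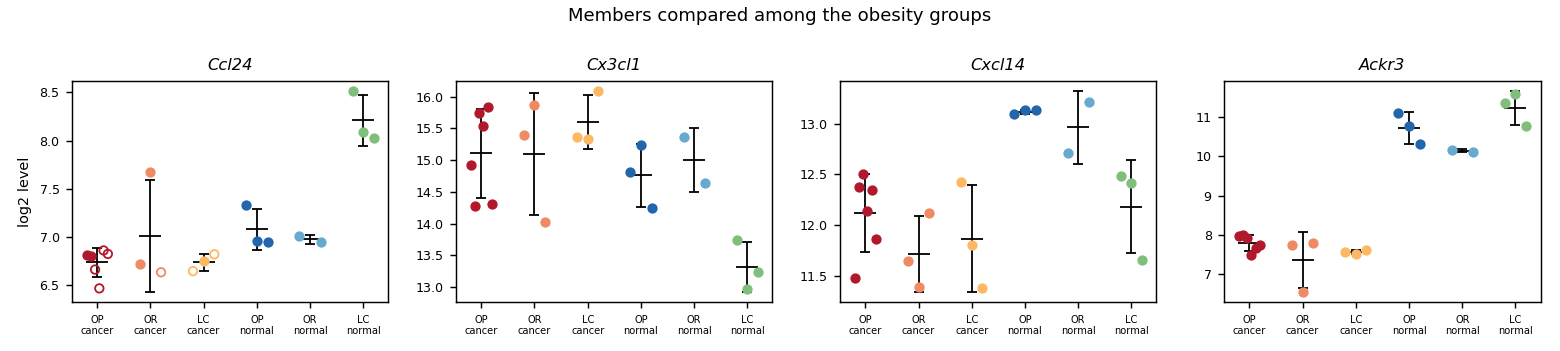
Log2 level of Ccl24, Cx3cl1, Cxcl14 and Ackr3 by group, with cancers left and normal tissues right, each sample as a point (open where not well above background) and the group mean ± SD as bars. The 3 LC normal tissues lie above the OP and OR normal tissues for Ccl24 and below them for Cx3cl1.

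Other genes of the pathway were taken from lists. Of 14 leukocyte adhesion and homing genes 2 rose and 8 fell in cancer, with a median of −0.81. Over all genes 29.4% rose, 33% fell and the median was −0.02. Icam2 (−1.59), Jam2 (−1.52) and Sele (−1.21), adhesion molecules of endothelium, fell, and so did Madcam1 (−1.20), an address for gut-homing lymphocytes. Sele was well above background on 6 of 12 cancers. The 5 endothelial markers fell alongside, and their part was not tested. Of 28 genes for signalling behind the receptors 9 rose and 7 fell (median 0.15), shares near those of all genes, with the small GTPase Rhoa (1.25) and the phospholipase Plcb3 (1.0020) up and Rgs16, which turns G proteins off, down (−0.48). Rgs16 was well above background on 1 of 12 cancers.

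Of 17 genes that induce or process chemokines 3 rose and 4 fell (median 0.04), fewer in each direction than the shares of all genes. Dpp4, a protease that trims Cxcl12 among others, fell by 1.86, the matrix protease Mmp2 by 1.51 and the growth factor Csf1 by 1.18, whereas the interferon-response factor Irf1 rose by 1.01. Of 11 other chemoattractants and like receptors 4 rose and 3 fell (median −0.00), again near the shares of all genes. Pf4 (−1.79) and Ppbp (−0.34), chemoattractants outside the symbol rule that are given above as platelet markers, were among those that fell. Mif, a cytokine that also binds Cxcr4, rose by 1.38 and Cmtm6 by 0.79, and Rarres2, which encodes the adipocyte product chemerin, fell by 3.34. All 9 adipocyte markers fell as well, and their part in the Rarres2 result was not tested.

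Ligands were also set against their receptors across the 12 cancers, with the brighter probe where a gene had several, for the 11 of 26 listed pairs in which both genes were well above background on at least 6 cancers. Permutation tests of Pearson's r and Spearman's rho used 100000 resamples and were two-sided, with Benjamini-Hochberg adjustment over the 11. Cxcl10 with Cxcr3 and Ccl2 with Ccr2 passed by both measures. Cxcl10 and Cxcr3 had r = 0.87 (permutation p = 0.000570, adjusted 0.00627) and Spearman's rho = 0.85 (permutation p = 0.00102, adjusted 0.0112). Ccl2 and Ccr2 had r = 0.74 (permutation p = 0.00587, adjusted 0.0215) and rho = 0.75 (permutation p = 0.00672, adjusted 0.0370).

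With the 2 cancers farthest from the ligand's median left out, which also narrows the ligand's range, r was 0.68 for Cxcl10 and Cxcr3 (without OR cancer 2 and LC cancer 1) and 0.48 for Ccl2 and Ccr2 (without OP cancer 6 and OR cancer 2), and no pair passed, so the calls, though not the sign of r, rest on those cancers. Leaving out 1 cancer at a time, Cxcl10 and Cxcr3 passed each time (r from 0.83 to 0.90, adjusted permutation p from 0.00627 to 0.0485). Ccl2 and Ccr2 had r from 0.64 to 0.81 and did not pass without OP cancer 6 (adjusted permutation p = 0.180), OP cancer 4 (0.0604) or OR cancer 2 (0.0566). Within the 8 cancers of scan day 1, r was 0.86 for Cxcl10 and Cxcr3 and 0.86 for Ccl2 and Ccr2 (exact permutation test, adjusted p = 0.0196 and 0.0257), and day 2 held 4 cancers, too few for a value. Cxcl12 had r = 0.02 with Cxcr4 and 0.06 with Ackr3, and Cx3cl1 had −0.03 with Cx3cr1, each with an adjusted permutation p of 0.949.

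**Figure D5:**
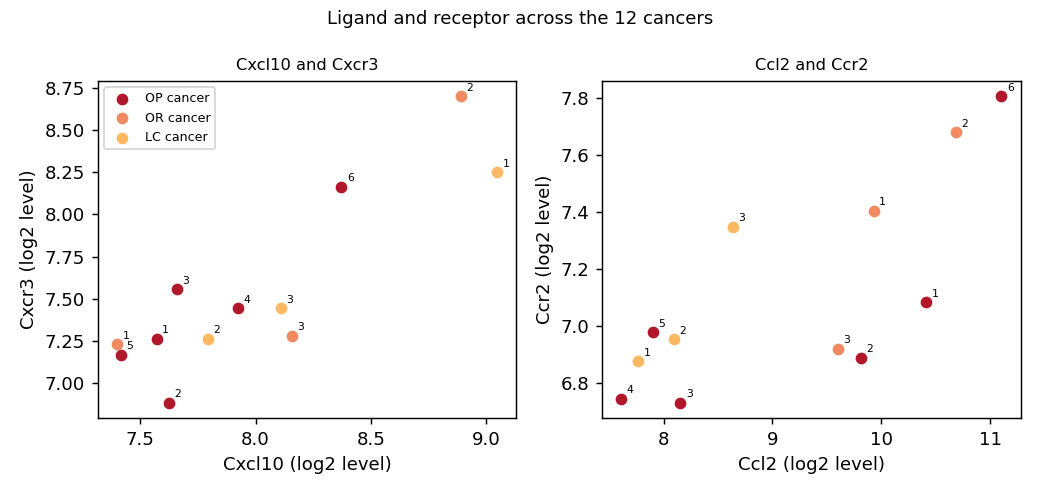
Log2 level of the receptor (vertical axis) against that of the ligand (horizontal axis) in the 12 cancers for Cxcl10 with Cxcr3 and Ccl2 with Ccr2, with points coloured by obesity group and numbered by replicate. OP cancer 6 lies at the upper right for Ccl2 and Ccr2, and OR cancer 2 and LC cancer 1 lie there for Cxcl10 and Cxcr3.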

How the data were processed

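Total RNA of 20 rat mammary samples was hybridised to one-colour Agilent arrays. The authors deposited scanner files with spot intensity and background intensity, and flags coded as other values. Feature Extraction is version 10.7.3.1 per the submitters' processing notes and 9.5.1.1 per the file headers. The authors also deposited a table of log2 values. The series text names Robust Multi-array Average normalisation and GeneSpring, but the table, which carries no note of its own scaling, lay close instead to processed signals on a log2 scale less the array's 75th percentile, with every probe centred on its median (median gap 0.0117), with column medians from −0.15 to 0.239, and its direction followed the scanner values.

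Median spot signals, in place of the planned mean signals, were corrected with normexp (offset 50), quantile-normalised and averaged over spots of a probe in limma 3.58.1 (R 4.3.3). Control spots (1639) and spots with outlier marks were left out. A probe was kept if a share of 0.5 or more of any group's arrays flagged it as clearly over background, which removed 822. The brightest probe stood for a gene. Of 13948 accessions, 8991 matched the RefSeq table. Tests used lmFit and eBayes on 36142 genes with all 6 groups, or the cancers or normal tissues alone, with Benjamini-Hochberg adjustment and a threshold of 0.05. On simulated data for cancer against normal tissue over 36142 genes, 51% of 100 genes changed by 0.5 and 93% of 100 changed by 1 (log2) were recovered. No other genes were changed there, values varied independently between genes, and 14 unchanged genes were called. In the real data 62.4% of all genes were called, so these rates do not carry over to them. The number of arrays limits the precision.

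Values by sample, with OP cancers as a range and median, are given for genes past the threshold with at least a 2-fold change in cancer against normal tissue or past it in any comparison. Where none passed, the 3 with the smallest p are named, and in lists the few with the smallest p and some that went the other way. The family and the lists were chosen with earlier results of these data known. Cxcl2, Cxcr4 and Cxcl13 were named after their values were seen. Slides 1 to 3 held both tissues, and slides 4 and 5 only cancers. Slides 1 to 3 were scanned on day 2, with every normal tissue and OP cancers 1 and 2, OR cancer 1 and LC cancer 1. Slides 4 and 5, with all other cancers, were scanned on day 1. Tissue and scan day are therefore partly confounded. Alternatives were other scalings, no dim filter, the mean of probes, slide, scan day and replicate number as blocks, and each sample left out. Of the 42 genes, 1 is in the counts but is not reported here.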

Additional observations from a re-analysis of the deposited data

Results flagged for a closer look

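In 8 of the 42 genes OP cancer 6 lay far above the other 5 OP cancers. Its gap to the next, set against the group's range, passed Dixon's critical value there. That value flags about 1 in 20 groups of independent, normally distributed values. All 8 flags fell on the same array. The share over all genes was not computed, so the count does not single out the family. Cxcl13 was 14.22 there, against at most 8.44 in the other OP cancers, and Cxcl2 was 12.43, against at most 8.86. Ccr6 was 8.97 (next 6.68) and Ccr1 was 8.02 (next 6.97). Ccr2 was 7.81 (next 7.08), Ccl4 was 7.72 (next 7.08), Cxcl6 was 7.38 (next 6.80) and Cxcr2 was 7.33 (next 6.42). Ccr6 and Cxcr2 were well above background on no other OP cancer. The neutrophil, macrophage, T cell and B cell marker levels were highest in the same cancer, and their part was not tested.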

How the results depend on the processing

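In cancer against normal tissue the family genes called higher numbered 2 with processed signals scaled to the 75th percentile, 1 in the authors' deposited table (19 of the genes) and 9 without OP cancer 6 and LC normal tissue 3, against 4, and those called lower 28 with either 75th percentile scaling, against 13. With processed signals at the 75th percentile, OP rats had 1 higher and 25 lower, OR rats 0 and 18, and LC rats 28 lower. With normexp at that percentile, OP had 1 and 24, OR 1 and 18, and LC 1 higher. The authors' table had 0 higher in OP, 0 in OR and 1 in LC, slide as a block 1 in OP and 0 in OR, and scan day as a block 1 in OP and 1 in OR. Signs that turned under the 2 scalings (processed, then normexp) were Ccr4 −2.75 and −0.79, Cx3cr1 −0.22 and −0.25, Cxcl11 −0.94 and −0.57, Cxcr1 −1.66 and −0.65, Cxcr2 −2.90 and −0.79, Cxcr3 −1.11 and −0.78 (−1.10 in the authors' table) and Cxcr5 −2.65 and −0.79. Within OP, OR and LC rats Cx3cr1 was −0.43, −0.10 and −0.12 (processed) and −0.39, −0.24 and −0.12 (normexp), and Cxcl11 −0.88, −1.08 and −0.86, then −0.60, −0.64 and −0.45. Ccr7 was 0.22 without the 2 tissues, and Cx3cl1 −0.24 within slide 2. The cause was not tested. With the 2 farthest cancers left out, 0 ligand and receptor pairs passed, against 3, and leaving out 1 cancer left 1 (without OP cancer 6) to 4 (without OR cancer 1). A further 54 sign changes in 15 genes concerned values called on neither side.

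Leaving out each sample gave 4 to 6 higher and 13 to 15 lower in cancer against normal tissue, 2 to 4 and 9 to 11 in OP, 0 to 3 and 4 to 10 in OR and 2 to 4 and 9 to 17 in LC rats. It gave 0 to 1 call (Ccl24) in OP or OR against LC normal tissue and 0 in the interaction, among cancers and in OP against OR normal tissue. Deviations from the group means had a median correlation of −0.05 between same-numbered samples (40 pairs, 5 above 0.1). Most of these pairs joined different obesity groups. Deviations within small groups also offset each other, so this check cannot tell whether samples are paired. With replicate number as a block 5 family genes were higher and 14 lower, with Cxcl2 at 1.17 and Cxcl13 at −1.49 added.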
